A study of Mus musculus with 6 samples.

Results

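Heat shock and DnaJ chaperone genes were followed in testicular germ cells of mice that lack the glycosyltransferase gene *Mgat1* in the germ line. The genes were those whose array symbol begins with Dnaja, Dnajb, Dnajc, Hspa, Hspb or Hsp90, the genes *Hspd1*, *Hspe1* and *Hsph1*, and Bag followed by a number, which gave 80 of the 23152 genes measured. The rule used names and no measured value, and so took in *Hspbp1* and *Hspbap1*, whose products act on chaperones, and *Hspb11*, an intraflagellar transport subunit named for its resemblance to small heat shock proteins. RNA came from 3 *Mgat1* cKO males (*Mgat1*[F/F]:Stra8-iCre, labelled as conditional mutants) and 3 control males (*Mgat1*[F/F] without Cre), all 22 days of age and on the FVB background, and each mouse had its own Affymetrix array. Both groups therefore carried floxed *Mgat1* alleles, and only the mutants carried the Cre transgene, which the *Stra8* promoter drives in spermatogonia, so later germ cells of these males descend from cells in which the gene was deleted. Cells were released from the testes with collagenase and trypsin. Signals are log2 values, and every difference below is *Mgat1* cKO minus control on that scale. A gene was called raised or lowered where its limma p-value, adjusted over all genes, was under 0.05.

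Chaperones of the HSP70 family hold unfolded stretches of other proteins and release them in a cycle driven by ATP. DnaJ proteins, also called HSP40, bring substrates to HSP70 and start ATP hydrolysis through the J domain, while BAG proteins and the HSP110 relatives help exchange the nucleotide. Small heat shock proteins keep damaged proteins soluble, HSP90 finishes the folding of kinases and receptors, and HSP60 with HSP10 forms a folding chamber in mitochondria. Many of these genes have a stress-induced form that heat shock factor 1 switches on. The testis also uses forms of its own that are switched on in meiotic spermatocytes or in haploid spermatids, the cells that reshape into sperm.

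The array signal of the targeted gene gave no check of the labels. *Mgat1* had 6.87, 6.69 and 6.80 in *Mgat1* cKO germ cells, against 6.91, 7.00 and 6.82 in control germ cells. The groups overlapped, and the difference was -0.13 (SE 0.096, adjusted p = 0.356), over 12 probe sets that could not be placed inside or outside the deleted part. Arrays correlated over all genes at 0.9918 to 0.9936 within a genotype and at 0.9501 to 0.9698 between genotypes. Array medians were 7.31 to 7.32 in *Mgat1* cKO and 7.35 to 7.38 in control cells. Germ cell markers such as *Ddx4* and *Dazl* had list means of 11.09 to 11.19 in *Mgat1* cKO and 11.37 to 11.46 in control arrays. In this list 4 of 6 genes fell and none rose, where 18.4% of all genes fell, and 2 to 3 fell without single arrays. Markers of Sertoli, Leydig, stromal cells and macrophages were measured on every array too, and no background level accompanies the values, so purity cannot be read from them. In such bulk samples, fewer cells of a type and less RNA per cell cannot be told apart.

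The sequences just upstream of 3 of the genes are shown as examples. Each belongs to a head-to-head pair in which 1 gene was called and the other was not. Other such pairs are not shown. *Hspa1l*, the HSP70 of spermatids, and *Hspa1a*, the classic heat-inducible HSP70, lie head to head on chromosome 17 with starts 547 bases apart, and *Hspe1* (HSP10) shares its upstream region with *Hspd1* (HSP60) on chromosome 1. The 250 bases before each start were taken from RefSeq on GRCm38.p6, at chr17:34972453-34972702 (plus strand) for *Hspa1l*, chr17:34972157-34972406 (minus strand) for *Hspa1a* and chr1:55087898-55088147 (plus strand) for *Hspe1*. Capitals mark TGACG, the core of the cAMP response element, on either strand (CGTCA where it lies on the other strand), and in *Hspe1* also the longer run that matches the heat shock element. The core stood in *Hspa1l*, 71 bases before the start, and in *Hspe1*, 36 bases before it, and *Hspa1a* held neither set of letters. Only exact runs of letters were searched, so this does not show that *Hspa1a* lacks a looser heat shock element.
Hspa1l: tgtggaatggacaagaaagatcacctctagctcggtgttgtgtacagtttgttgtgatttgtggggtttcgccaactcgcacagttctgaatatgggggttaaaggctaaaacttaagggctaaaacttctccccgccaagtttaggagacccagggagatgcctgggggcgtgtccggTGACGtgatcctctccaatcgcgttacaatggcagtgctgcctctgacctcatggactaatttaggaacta
Hspa1a: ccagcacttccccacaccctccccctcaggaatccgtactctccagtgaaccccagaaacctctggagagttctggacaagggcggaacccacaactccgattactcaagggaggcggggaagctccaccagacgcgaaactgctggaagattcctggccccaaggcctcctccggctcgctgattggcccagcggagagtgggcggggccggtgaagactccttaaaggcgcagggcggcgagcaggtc
Hspe1: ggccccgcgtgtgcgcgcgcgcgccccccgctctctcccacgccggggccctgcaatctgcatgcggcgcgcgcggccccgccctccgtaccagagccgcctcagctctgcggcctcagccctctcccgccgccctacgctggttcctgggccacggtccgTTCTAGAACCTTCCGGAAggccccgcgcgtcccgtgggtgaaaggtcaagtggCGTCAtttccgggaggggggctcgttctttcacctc

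The letters of these elements were searched on both strands of such windows, which RefSeq gave for 65 of the 80 genes. A heat shock element, read as GAANNTTCNNGAA, stood in 0.466% of all 32851 windows. Among the members it stood in windows of 3, *Hspd1*, *Hspe1* and *Dnajb6*, where the match nearest a start began 139, 84 and 46 bases upstream. The windows of *Hspd1* and *Hspe1* overlap, and their matches are the same stretch read from opposite strands. The full cAMP response element TGACGTCA, the site known for CREM in spermatids, stood in 1.55% of windows and in those of *Dnajc27* alone among the members. Its core TGACG, which lies within the full element, occurred in 17.8% of windows and in 19.8% of genes. Among the members 32 of 65 genes (49.2%) held that core. They included 5 of 9 testis-enriched genes, the raised *Dnajb3* and *Hspa1l* and the uncalled *Dnajc5g*, *Hspa2* and *Hspa4l*. The raised *Dnajb7*, *Dnajb8*, *Dnajb13* and *Hspb9* held no core in their windows. Also included were 4 of 9 stress-induced genes (*Dnajb1*, *Hspb1*, *Hspd1* and *Hspe1*), with the same site counted for *Hspd1* and *Hspe1*. Whether the core goes with a rise was not tested. A match is a run of letters and no measured binding, and looser matches were not searched.

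Of the 80 members, 14 rose (17.5%) and 15 fell (18.8%), against 13.3% raised and 18.4% lowered among all 23152 genes. The members as a whole thus stood near the background in both directions. Among them 4 rose by at least 2-fold, where 4.18% of all genes did, and none fell that far, where 0.488% of all genes did. The *Mgat1* cKO arrays lay wholly above the controls in 21 members and wholly below in 25, against 20.1% and 26.6% of all genes. The median difference was -0.06 over the members and -0.02 over all genes. All 29 called members had groups without overlap. The same share among all called genes was not taken, so a lack of overlap is no separate support for a call. The 51 that were not called ranged from -0.36 to 0.29, with 10 more members at an unadjusted p under 0.05. With each array centred on its median, 19 members rose and 7 fell, and 3654 of all genes rose and 3426 fell, against 3088 and 4255 without centring, so the balance of directions depends on the scaling. Leaving out any single array left 12 to 14 members raised and 6 to 10 lowered.

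**Figure D1:**
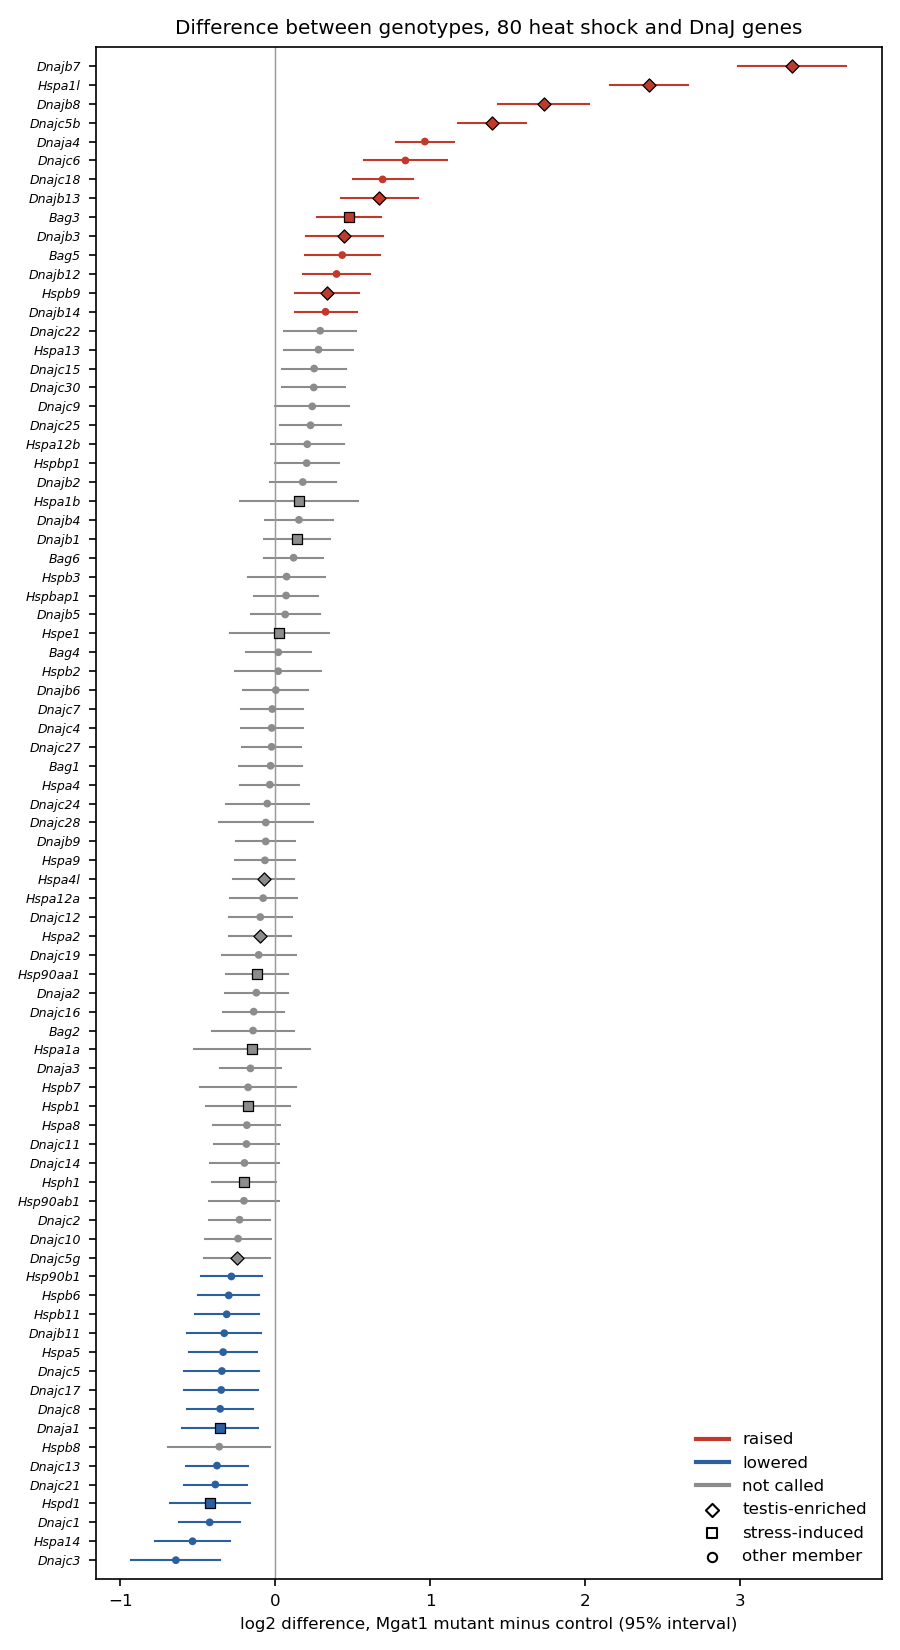
Log2 difference (*Mgat1* cKO minus control) of each of the 80 genes with its 95% interval, ranked from the highest at the top; colour gives the call, diamonds mark testis-enriched and squares stress-induced genes. The 4 genes with differences over 1 are all diamonds, and the squares lie between -0.42 and 0.47.

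The genes that rose most were testis forms of the chaperones. Of 10 members known as testis-enriched, 7 rose, none fell, and 4 rose at least 2-fold, with a median difference of 0.56. Among all genes 13.3% rose, 18.4% fell and 4.18% rose at least 2-fold. The list was chosen with earlier results of these data known, so its count is no independent support. The mean signal of the list was 10.05, 9.97 and 10.02 in *Mgat1* cKO germ cells, against 9.03, 8.98 and 9.06 in control germ cells. *Dnajb7*, a DnaJ gene expressed in testis, had 9.72, 9.34 and 9.53 in *Mgat1* cKO germ cells, against 6.01, 6.05 and 6.53 in controls. All 3 mutants stood far above all 3 controls, with a difference of 3.33 (SE 0.15, 10.1-fold, adjusted p = 1.1e-06). *Hspa1l* had 8.39, 8.07 and 8.34 in *Mgat1* cKO germ cells, against 5.85, 5.77 and 5.96 in controls. The groups were again apart, by 2.41 (SE 0.11, 5.31-fold, adjusted p = 1.1e-06), while its head-to-head neighbour *Hspa1a* differed by -0.15. *Dnajb8*, which holds back protein aggregation, had 7.70, 7.49 and 7.69 in *Mgat1* cKO germ cells, against 6.09, 5.64 and 5.96 in controls. It was 3.32-fold higher in the mutant (log2 1.73, SE 0.13, adjusted p = 1.09e-05), without overlap. *Dnajc5b* encodes a testis form of cysteine string protein, a chaperone of secretory vesicles, and had 9.71, 9.71 and 9.67 in *Mgat1* cKO germ cells, against 8.14, 8.35 and 8.40 in controls. Its 3 mutant values lay within 0.05 of each other and well above the controls, a difference of 1.40 (SE 0.098, adjusted p = 6.98e-06).

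Smaller rises were seen in 3 further testis-enriched genes. *Dnajb13*, which encodes a DnaJ protein of the radial spokes of cilia and sperm tails, had 9.97, 10.08 and 9.81 in *Mgat1* cKO germ cells, against 9.32, 9.39 and 9.13 in controls, a difference of 0.67 (adjusted p = 0.00176). *Dnajb3*, a DnaJ gene of spermatids, had 10.09, 9.78 and 9.99 in *Mgat1* cKO germ cells, against 9.61, 9.52 and 9.39 in controls, a difference of 0.45 (adjusted p = 0.0139). *Hspb9*, a small heat shock protein of the testis, had 10.59, 10.59 and 10.74 in *Mgat1* cKO germ cells, against 10.34, 10.22 and 10.36 in controls, a difference of 0.33 (adjusted p = 0.0227). In each of these genes every mutant array was above every control array. The call of *Dnajb3* was lost without cKO array 1 (0.38, adjusted p = 0.053), and that of *Hspb9* without control array 2 (0.29, adjusted p = 0.078) or cKO array 3 (0.28, adjusted p = 0.068). On the median of its probe sets the call of *Dnajb3* was also lost (adjusted p = 0.065), and on the median or the brightest probe set that of *Hspb9* (adjusted p = 0.133 and 0.366).

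The other 3 testis-enriched genes did not pass the test. *Hspa2*, the HSP70 that spermatocytes switch on in meiosis, had 11.93, 11.99 and 12.09 in *Mgat1* cKO germ cells, against 12.10, 12.11 and 12.09 in controls (-0.10, 95% interval -0.30 to 0.10, adjusted p = 0.432), and its sign turned to 0.08 on the median and 0.01 on the brightest of its probe sets. *Hspa4l*, an HSP110 relative abundant in testis, had 11.33, 11.41 and 11.40 in *Mgat1* cKO germ cells, against 11.52, 11.39 and 11.45 in controls (-0.07, 95% interval -0.27 to 0.12, adjusted p = 0.56). Both groups overlapped in these genes, and the intervals bound the mean signal only. *Dnajc5g*, a further testis form of cysteine string protein, had 11.09, 11.19 and 10.95 in *Mgat1* cKO germ cells, against 11.34, 11.31 and 11.32 in controls. All mutant arrays lay below the controls (-0.24, adjusted p = 0.0772), and the gene passed as lowered on the median of its probe sets (-0.49, adjusted p = 0.026), with the dimmest 50% of probe sets left out (-0.24, adjusted p = 0.049) or with a trend and robust variance (-0.24, adjusted p = 0.013).

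Markers of spermatids moved with the testis-enriched list. All 16 spermatid markers rose, with a median difference of 2.20, and their list mean was 10.42 to 10.66 in *Mgat1* cKO arrays and 7.98 to 8.17 in control arrays. *Odf2*, the least changed of them, lost its call without any single array, which left 15 raised. Of 10 spermatocyte markers 7 fell and 1 rose, with a median of -0.54 and list means of 10.13 to 10.29 in *Mgat1* cKO and 10.58 to 10.66 in control arrays. RMA values have no zero, so no marker can be said to be at 0. The part of these markers in the chaperone differences was not tested.

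**Figure D2:**
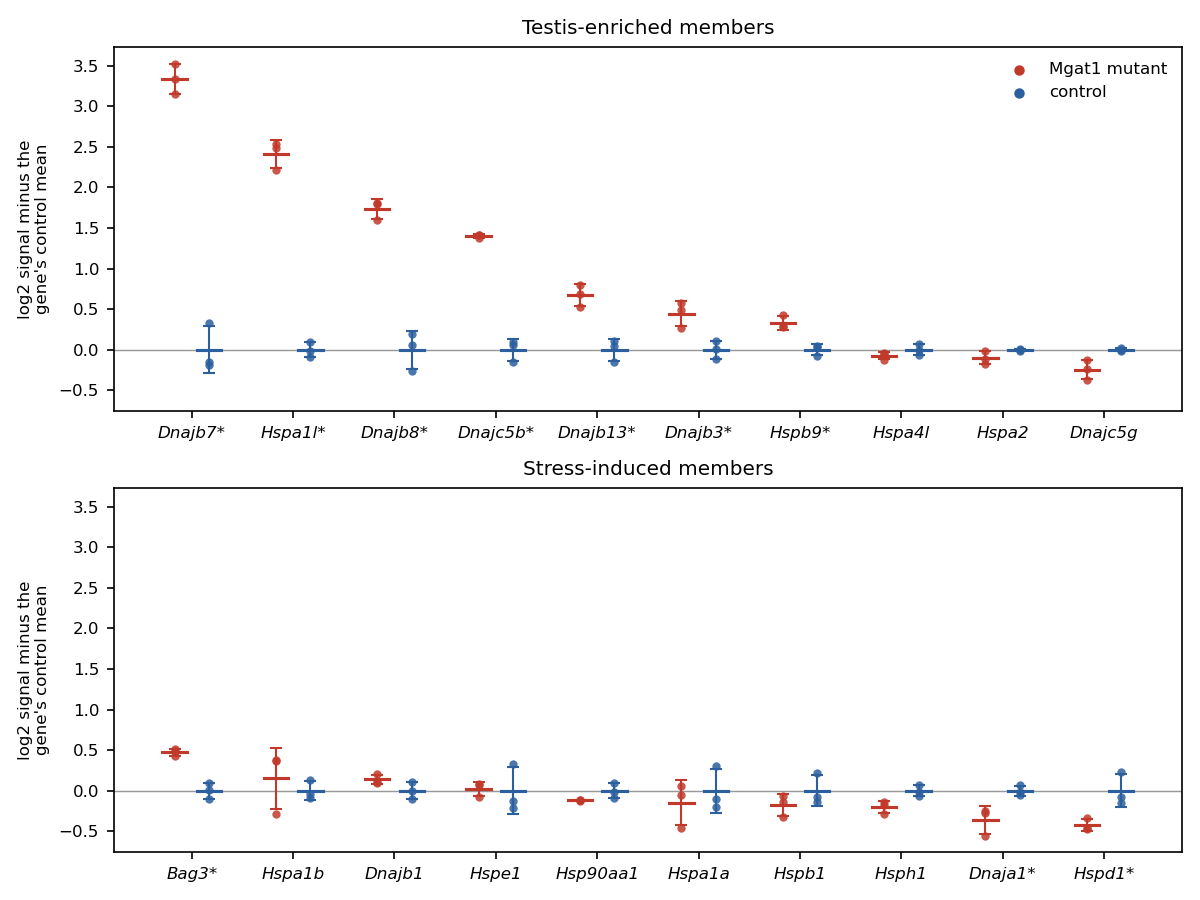
Log2 signal on each array minus the control mean of that gene, with *Mgat1* cKO (red, left) and control (blue, right) arrays, for testis-enriched genes above and stress-induced genes below; bars are means with SD over 3 mice and asterisks mark called genes. *Dnajb7*, *Hspa1l*, *Dnajb8* and *Dnajc5b* stand 1.40 to 3.33 above their controls, and no stress-induced gene has a mean more than 0.47 above.

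The stress-induced members showed no shared rise. Of 10 such genes, 1 rose and 2 fell, near the 13.3% raised and 18.4% lowered among all genes. The median difference was -0.13, with list means of 8.52, 8.63 and 8.62 in *Mgat1* cKO germ cells, against 8.60, 8.72 and 8.64 in controls. *Bag3*, which brings HSP70 clients to autophagy, had 9.34, 9.31 and 9.26 in *Mgat1* cKO germ cells, against 8.85, 8.92 and 8.73 in controls. It rose by 0.47 (SE 0.092, adjusted p = 0.00448) without overlap, and kept its call without any single array, though on its brightest probe set the value was 0.39 (adjusted p = 0.051). *Hspd1*, the mitochondrial HSP60, had 7.88, 7.75 and 7.76 in *Mgat1* cKO germ cells, against 8.14, 8.44 and 8.07 in controls. It fell by 0.42 (SE 0.12, adjusted p = 0.0215). *Dnaja1*, a cytosolic DnaJ partner of HSP70, had 8.93, 8.95 and 8.64 in *Mgat1* cKO germ cells, against 9.18, 9.26 and 9.14 in controls. It fell by 0.36 (SE 0.11, adjusted p = 0.0324), again without overlap. The *Hspd1* call was lost without control array 2 (-0.31, adjusted p = 0.066), cKO array 2 (-0.40, 0.067) or cKO array 3 (-0.40, 0.063) and on the brightest probe set (-0.29, adjusted p = 0.238). The *Dnaja1* call was lost without cKO array 3 (-0.26, adjusted p = 0.089) or control array 1, 2 or 3 (adjusted p = 0.060, 0.098 and 0.056), with centred arrays (-0.31, adjusted p = 0.056) and on the median (-0.23, 0.273) or brightest probe set (-0.22, 0.177).

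The classic heat-inducible genes were among the 7 that did not pass. *Hspa1a* had 6.04, 6.56 and 6.45 in *Mgat1* cKO germ cells, against 6.29, 6.80 and 6.40 in controls (-0.15, 95% interval -0.53 to 0.23, adjusted p = 0.536). *Hspa1b* had 7.67, 8.31 and 8.32 in *Mgat1* cKO germ cells, against 8.08, 7.86 and 7.91 in controls (0.15, 95% interval -0.23 to 0.54, adjusted p = 0.529). These copies are nearly identical, so signal can be split between them, and a pair of probe sets assigned to both differed by 0.19 and -0.02. *Hspa1b* passed as raised without cKO array 1 (0.37, adjusted p = 0.043), and *Hspa1a* was at 0.0068 without that array. *Hspb1* (HSP27) had 6.69, 6.51 and 6.77 in *Mgat1* cKO germ cells, against 6.70, 6.76 and 7.05 in controls (-0.18, adjusted p = 0.298). *Dnajb1*, the main inducible HSP40, had 10.88, 10.87 and 10.97 in *Mgat1* cKO germ cells, against 10.76, 10.67 and 10.87 in controls (0.14, adjusted p = 0.294). In all 4 genes the groups overlapped. *Hsph1*, the inducible HSP110, had 9.04, 9.16 and 9.19 in *Mgat1* cKO germ cells, against 9.27, 9.32 and 9.40 in controls (-0.20, adjusted p = 0.125). *Hsp90aa1*, the inducible HSP90, had 10.32, 10.31 and 10.32 in *Mgat1* cKO germ cells, against 10.53, 10.35 and 10.43 in controls (-0.12, adjusted p = 0.35, and -0.48 with adjusted p = 0.023 on the median of its probe sets). Both of these had all mutant arrays below the controls. *Hspe1* had 8.40, 8.54 and 8.55 in *Mgat1* cKO germ cells, against 8.26, 8.80 and 8.35 in controls (0.03, adjusted p = 0.91), overlapped, and on the median of its probe sets passed as raised (0.59, adjusted p = 0.032).

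Immediate early genes, which the isolation of cells can induce within minutes, were lower beside these. Of 14 such genes, among them *Fos*, *Jun* and *Egr1*, 12 fell, with a median of -0.91 and list means of 8.27 to 8.65 in *Mgat1* cKO and 9.16 to 9.49 in control arrays. Their part in the values of the stress-induced chaperones was not tested.

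Chaperones of the endoplasmic reticulum had more falls than rises. Of 10 genes, 5 fell and 2 rose, where 18.4% of all genes fell and 13.3% rose. The median was -0.26, and the list mean was 9.71, 9.79 and 9.81 in *Mgat1* cKO germ cells, against 9.89, 9.90 and 9.90 in controls. *Dnajc3* (P58IPK), a cochaperone of BiP that also restrains the kinase PERK, had 9.49, 9.72 and 9.86 in *Mgat1* cKO germ cells, against 10.49, 10.36 and 10.14 in controls. It fell by 0.64 (SE 0.13, adjusted p = 0.00503), the largest fall among the members, without overlap. *Dnajc1*, a membrane-bound DnaJ protein of the reticulum, had 7.42, 7.47 and 7.44 in *Mgat1* cKO germ cells, against 7.86, 7.94 and 7.81 in controls, and fell by 0.42 (adjusted p = 0.00586). These 2 kept their calls without any single array, although the brightest probe set gave -0.12 for *Dnajc3* (adjusted p = 0.594) and -0.36 for *Dnajc1* (adjusted p = 0.053).

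*Hspa5* (BiP), the HSP70 of the reticulum, fell by 0.34 (adjusted p = 0.0266), its cochaperone *Dnajb11* by 0.33 (adjusted p = 0.042) and *Hsp90b1* (GRP94), the HSP90 of the reticulum, by 0.28 (adjusted p = 0.034). Each lay below its controls on every mutant array. Leaving out single arrays took the *Hspa5* call away in 5 of 6 cases (adjusted p up to 0.087), the *Dnajb11* call in 5 of 6 (up to 0.139) and the *Hsp90b1* call in 6 of 6 (0.061 to 0.107), and centring the arrays took away all 3 (adjusted p = 0.050, 0.077 and 0.070). The membrane-anchored DnaJ proteins *Dnajb12* and *Dnajb14*, which serve in the disposal of misfolded membrane proteins, rose by 0.40 (adjusted p = 0.0133) and 0.32 (adjusted p = 0.021). *Dnajb14* lost its call without control array 1 (adjusted p = 0.066), cKO array 1 (0.054) or cKO array 2 (0.073), and *Dnajb12* on its brightest probe set (0.20, adjusted p = 0.258). The remaining 3 did not pass: *Hspa13* differed by 0.28, *Dnajb9* by -0.06 and the disulfide reductase *Dnajc10* by -0.24. With centred arrays the list had 3 raised and 2 lowered genes.

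Markers of several somatic cell types of the testis moved beside these genes. Their counts stand against 18.4% lowered and 13.3% raised among all genes. Of 10 stromal and peritubular markers 7 fell, stromal genes such as *Pdgfra* and *Dcn*, while the muscle markers *Acta2*, *Cnn1* and *Myh11* stood at 0.12, 0.15 and -0.06, with list means of 7.63 to 8.06 in *Mgat1* cKO and 8.35 to 8.69 in control arrays. Of 10 macrophage markers 6 fell, with list means of 6.84 to 7.55 in *Mgat1* cKO and 7.98 to 8.46 in control arrays. Of 8 Sertoli cell markers 4 fell, with list means of 7.90 to 8.20 in *Mgat1* cKO and 8.36 to 8.54 in control arrays. Without cKO array 2 or 3 or control array 2 or 3 the count was 2, and its highest value without a single array was 5. Of 7 Leydig cell markers 2 fell and 1 rose, with list means of 7.55 to 8.83 in *Mgat1* cKO and 8.78 to 9.28 in control arrays, which overlapped. Without cKO array 2 the Leydig count was 4 fallen, without control array 2 it was 0, and without any other array it was 1, and the rise of *Insl3* was lost without cKO array 1 or 3 or control array 1 or 2 (adjusted p up to 0.139). Their part in the falls of chaperone genes was not tested.

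Most general chaperones of the cytosol did not pass the test. Of 8 constitutive cytosolic members only *Hspa14* passed (12.5%), where 31.7% of all genes did, and the median was -0.08. *Hspa14*, an HSP70 that works with the ribosome-bound chaperone complex, had 7.31, 7.28 and 7.59 in *Mgat1* cKO germ cells, against 7.99, 7.86 and 7.93 in controls. It fell by 0.53 (SE 0.11, adjusted p = 0.00533), without overlap, and kept its call without any single array, though with -0.39 on the median of its probe sets (adjusted p = 0.072). *Hspa8* (HSC70), the constitutive HSP70, differed by -0.18 (adjusted p = 0.181), *Hsp90ab1* by -0.20 (adjusted p = 0.162) and *Hspa4* by -0.03 (adjusted p = 0.791). The DnaJ proteins *Dnaja2*, *Dnajb2*, *Dnajb6* and *Dnajc7* lay between -0.12 and 0.18. None of these 7 passed, and the widest of their intervals ran from -0.43 to 0.03.

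In mitochondria *Hspd1* was the 1 gene of 8 that passed (12.5%), where 31.7% of all genes did, and the list median was -0.09. *Hspa9* (mortalin), the HSP70 of the matrix, differed by -0.07 (adjusted p = 0.595). Its partner *Dnaja3* differed by -0.16 and the import factor *Dnajc19* by -0.11. *Dnajc15* and *Dnajc30* were each at 0.25 (adjusted p = 0.0648 and 0.0638), above the controls on every mutant array, and with centred arrays 2 genes of the list passed as raised.

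Of 5 DnaJ genes whose products work in the nucleus or on ribosomes, 3 fell and none rose, where 18.4% of all genes fell, and the median was -0.35. The other members of that list did not pass: *Dnajc9* was at 0.24 (adjusted p = 0.116) and *Dnajc2* at -0.23 (adjusted p = 0.0761). *Dnajc21*, a factor of ribosome assembly, had 10.21, 10.36 and 10.37 in *Mgat1* cKO germ cells, against 10.71, 10.73 and 10.65 in controls, a fall of 0.39 (adjusted p = 0.0112). *Dnajc8*, found with the spliceosome, had 7.70, 7.92 and 7.83 in *Mgat1* cKO germ cells, against 8.23, 8.12 and 8.16 in controls, a fall of 0.35 (adjusted p = 0.0188). *Dnajc17*, likewise linked to splicing, had 7.04, 7.04 and 7.06 in *Mgat1* cKO germ cells, against 7.28, 7.59 and 7.30 in controls, a fall of 0.35 (adjusted p = 0.0326). None of these 3 overlapped between genotypes, and 1 to 3 were called when single arrays were left out. The *Dnajc8* call was lost without control array 1 (adjusted p = 0.054) or cKO array 1 (0.069), and the *Dnajc17* call without control array 2 (-0.25, adjusted p = 0.104) or any of the 3 cKO arrays (0.081, 0.083 and 0.070), while on the median of probe sets *Dnajc21* had -0.24 (adjusted p = 0.205) and *Dnajc8* -0.12 (adjusted p = 0.607).

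Genes of vesicle traffic went both ways. *Dnajc6* (auxilin), which helps HSC70 strip clathrin from vesicles, had 6.79, 6.59 and 6.82 in *Mgat1* cKO germ cells, against 6.03, 5.68 and 5.97 in controls, a rise of 0.84 (SE 0.12, adjusted p = 0.000763). *Dnajc13* (RME-8), an endosomal DnaJ protein, had 8.99, 9.05 and 9.04 in *Mgat1* cKO germ cells, against 9.45, 9.46 and 9.30 in controls, a fall of 0.38 (adjusted p = 0.012). *Dnajc5*, the widely expressed cysteine string protein, had 7.85, 8.14 and 7.82 in *Mgat1* cKO germ cells, against 8.28, 8.32 and 8.24 in controls, a fall of 0.34 (adjusted p = 0.0365). *Dnajc5* lost its call in 5 of 6 fits without a single array (adjusted p up to 0.114) and had -0.10 on the median of its probe sets (adjusted p = 0.651), and *Dnajc6* had 0.13 on its brightest probe set (adjusted p = 0.615). The cysteine string proteins thus stood at 1.40 for *Dnajc5b*, -0.24 for *Dnajc5g* and -0.34 for *Dnajc5*.

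Of the 28 members without a place in these groups, 3 rose (10.7%) and 2 fell (7.14%), where 13.3% of all genes rose and 18.4% fell. *Dnaja4*, a cytosolic DnaJ protein close to *Dnaja1*, had 8.94, 8.91 and 8.92 in *Mgat1* cKO germ cells, against 7.96, 7.93 and 7.98 in controls. The arrays of each genotype lay close together and apart from those of the other, and the rise was 0.97 (SE 0.084, 1.95-fold, adjusted p = 2.94e-05). *Dnajc18*, a DnaJ gene with little known function, had 10.49, 10.44 and 10.45 in *Mgat1* cKO germ cells, against 9.75, 9.72 and 9.83 in controls, a rise of 0.69 (adjusted p = 0.000351). *Bag5*, a nucleotide exchange factor of HSP70, rose by 0.43 (adjusted p = 0.0142), a call lost without control array 2 (0.35, adjusted p = 0.052) or cKO array 2 (0.40, adjusted p = 0.053). *Hspb6* (HSP20) fell by 0.30 and the transport subunit *Hspb11* by 0.31 (adjusted p = 0.028 and 0.0286). Leaving out any of the 6 arrays took away the *Hspb6* call (adjusted p up to 0.082), and 4 of the 6 that of *Hspb11* (up to 0.096). The other Bag genes ran from -0.14 for *Bag2* to 0.12 for *Bag6*, and none passed.

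By family, the Dnajb genes had 6 of 13 raised (46.2%) and 1 lowered (7.69%), with a median of 0.18. Among those raised, *Dnajb7*, *Dnajb8*, *Dnajb13* and *Dnajb3* were already counted as testis-enriched, and *Dnajb12* and *Dnajb14* were not on that list. The Dnajc genes had 3 of 28 raised (10.7%) and 7 lowered (25%), with a median of -0.10. Among all genes 13.3% rose and 18.4% fell. Of 13 Hspa genes 1 rose and 2 fell, and of 8 Hspb genes 1 rose and 2 fell. The 4 largest rises came from 3 families. The 70 members outside the testis-enriched list had 7 raised (10%) and 15 lowered (21.4%) genes, near the shares of all genes, and a median of -0.06.

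Heat shock factors, the transcription factors that act on many of these genes, were examined alongside. *Hsf1*, the stress-responsive factor, had 9.58, 9.59 and 9.58 in *Mgat1* cKO germ cells, against 9.66, 9.63 and 9.78 in controls, a difference of -0.11 that did not pass (adjusted p = 0.388). *Hsf2*, a factor with a known part in spermatogenesis, had 9.43, 9.33 and 9.31 in *Mgat1* cKO germ cells, against 8.60, 8.41 and 8.48 in controls. It rose by 0.86 (adjusted p = 0.000142), with no overlap between genotypes. The HSF-like gene *Hsfy2* had 8.91, 8.68 and 8.57 in *Mgat1* cKO germ cells, against 6.27, 6.06 and 6.83 in controls, and *Hsf2bp*, which binds HSF2 and acts in meiotic recombination, fell by 0.38 (adjusted p = 0.0178), a call lost without control array 2, cKO array 1 or cKO array 3 (adjusted p = 0.053, 0.056 and 0.058). Of the 8 genes listed, 2 rose (25%) and 1 fell (12.5%), where 13.3% of all genes rose and 18.4% fell.

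Partners of HSP70 and HSP90 gave 2 raised (7.69%) and 7 lowered (26.9%) genes of 26 measured, with a median of -0.21. Among all genes 13.3% rose and 18.4% fell. *Odf1*, an outer dense fibre gene of the sperm tail listed for its small heat shock domain, rose by 1.65, with 10.84, 10.86 and 10.65 in *Mgat1* cKO germ cells and 9.21, 9.02 and 9.20 in controls (adjusted p = 3.67e-06). *Ahsa2*, a relative of the HSP90 activator AHA1, fell by 0.60 (adjusted p = 0.0012), the HSP90 cochaperone *Chordc1* by 0.50 (adjusted p = 0.01) and *Tomm34* by 0.44 (adjusted p = 0.00857). *Hyou1*, an HSP110 relative of the endoplasmic reticulum, fell by 0.41, and *Sil1*, the exchange factor of BiP, rose by 0.29 (adjusted p = 0.0306), a call lost without any array but control array 3 (adjusted p up to 0.096). Of 15 chaperonin and prefoldin genes, which fold actin and tubulin, *Cct4* rose by 0.32 and *Pfdn4* fell by 0.53, and the median was -0.11. The *Cct4* call was lost without control array 3 or cKO array 2 (adjusted p = 0.058 and 0.071), and that of *Pfdn4* without control array 1 or 3 or cKO array 1 or 2 (adjusted p up to 0.070), while without cKO array 3 the list had 3 lowered genes.

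**Figure D3:**
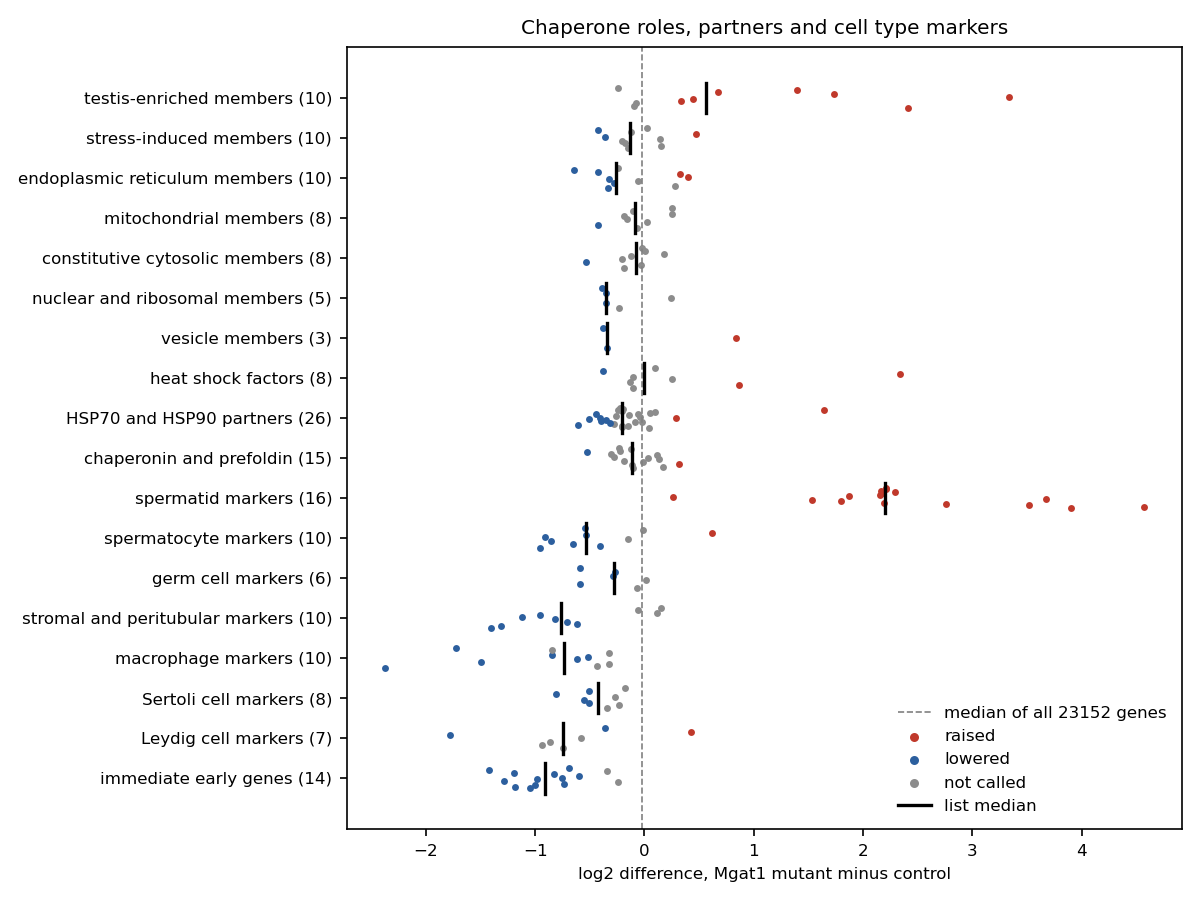
Log2 difference (*Mgat1* cKO minus control) of every measured gene of the chaperone groups, partners and marker lists, with the number of genes in brackets, list medians as bars and the median of all genes as a dashed line. The testis-enriched genes reach 3.33 with a median of 0.56, the spermatid markers have a median of 2.20, and the somatic and immediate early lists have medians of -0.42 to -0.91.

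Several members share a start region or a locus with another gene, which let neighbours be set side by side. Of 11 members head to head with a measured gene within 1000 bases, 6 were called, where 31.7% of all genes were. Of these 6 members, 2 had a neighbour called the same way. *Hspa14* fell with *Cdnf*, a trophic factor of the endoplasmic reticulum whose start lies 251 bases away and which differed by -0.66 (adjusted p = 0.00411). *Hspb11* fell with *Lrrc42*, 159 bases away (-0.39, adjusted p = 0.0314), whose call was lost without control array 2 or 3 or cKO array 1 or 2 (adjusted p up to 0.105). In the following pairs 1 gene was called and the other was not. *Hspa1l* rose by 2.41 beside *Hspa1a* at -0.15, and *Hspd1* fell by 0.42 beside *Hspe1* at 0.03, with starts 216 bases apart. *Dnaja1* (-0.36) was lowered beside *Gm6297* at -0.17, and *Dnajc8* (-0.35) beside *Atpif1* at -0.0019. *Fubp1* was lowered (-0.59, adjusted p = 0.00113) beside *Dnajb4* at 0.15. *Slc30a3* was raised (0.29, adjusted p = 0.0396) beside *Dnajc5g* at -0.24. No difference between neighbours was tested. *Dnajb7* lies within the gene *Xpnpep3*, a mitochondrial peptidase, which had a mean of 8.06 in *Mgat1* cKO and 8.45 in control germ cells and fell by 0.39 (adjusted p = 0.0242) where *Dnajb7* rose by 3.33. The *Xpnpep3* call was lost without control array 2 or 3 or cKO array 1 (adjusted p up to 0.075). *Dnajb3* lies within the *Ugt1a* cluster of glucuronosyltransferase genes, of which 7 measured genes did not pass.

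The probe sets show how evenly the separate measurements of a gene moved, though their positions along it were not known. The members had 905 probe sets, of which 49 were raised (5.41%) and 23 lowered (2.54%) when tested singly, against 4.98% and 3.97% of all 233753. All 3 probe sets of *Dnajb7* were raised, by 2.92 to 3.73. In *Hspa1l* 4 of 5 were raised, and the fifth was at 0.34. Both *Dnajb8* probe sets were raised, by 1.07 and 2.39, and a pair shared with the overlapping gene *1700031F10Rik* were at 2.42 and 0.49, with the share of each gene not known. In *Dnajc5b* 6 of 9 were raised, and the lowest was at 0.05. These 4 genes thus rose on most of what was measured of them.

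Other members were uneven. Of the 13 probe sets of *Dnajc3*, 4 were lowered, with the lowest at -2.75 and the highest at 0.06. In *Dnajc6* 4 of 22 were raised, spread from -0.70 to 2.57, and in *Dnajb13* 7 of 13, spread from -1.06 to 2.07. In *Dnajc13*, which has the most probe sets of the members, 44 of 46 were below 0 and 3 were lowered. All 18 probe sets of *Hsp90b1* were below 0, between -0.51 and -0.13, and none passed singly. *Dnajb14*, *Dnajb4* and *Hspa4l* each had probe sets called in both directions. *Hspa4l*, not called as a gene, had 1 raised set at 0.91 and 1 lowered at -1.45 among 25. Of the 80 members, 28 had at least 1 called probe set and 21 had all of theirs on 1 side of zero.

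**Figure D4:**
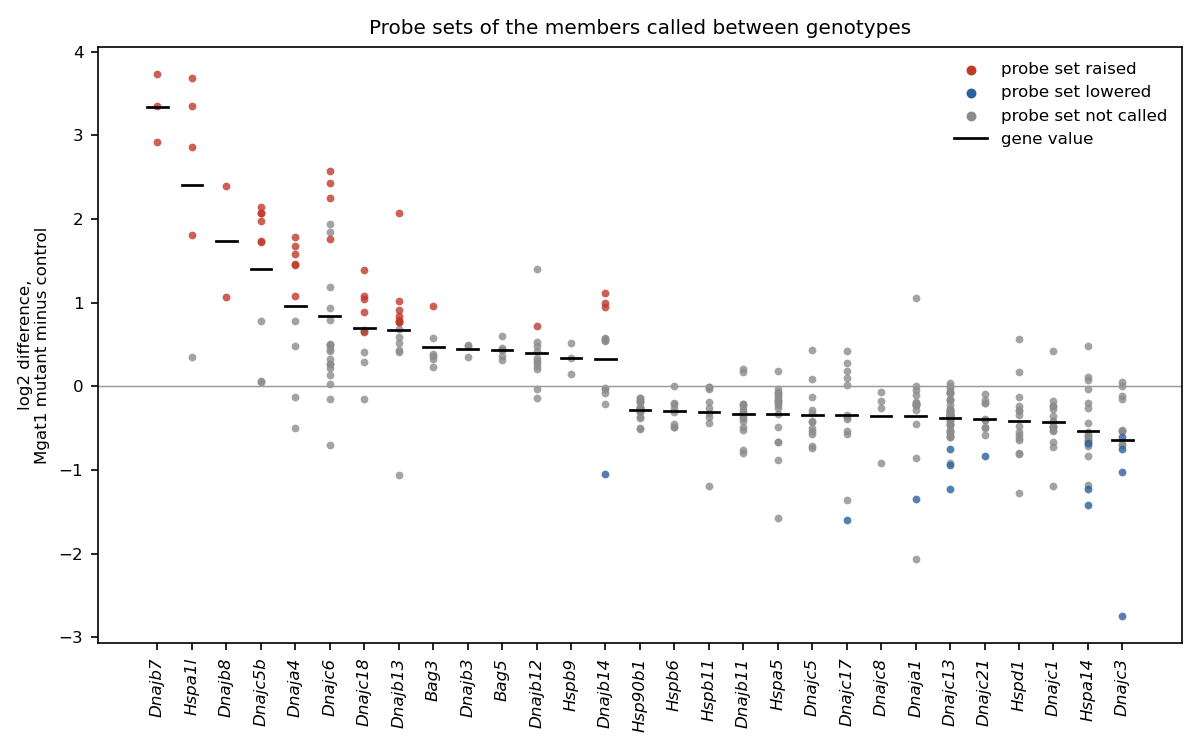
Log2 difference (*Mgat1* cKO minus control) of each probe set of the 29 called members, ranked by gene value (black bars), with probe sets that passed singly in red (raised) or blue (lowered). *Dnajb7* has its 3 probe sets between 2.92 and 3.73, and *Dnajc3* has a single set at -2.75 below the rest.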

How the data were processed

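RNA of 6 mice (3 per genotype) was hybridized to Affymetrix Mouse Gene 2.0 ST arrays. The authors processed scans in Expression Console with RMA, and the deposited values are log2 signals of 269751 probe sets; for the software version and build, nothing is given in the sources used here. Folds of dim genes can be understated by RMA, and array medians still differed between genotypes. Of the probe sets, 233753 had 1 gene symbol, 5139 several and 30859 none. A gene's value was the mean of its 1-symbol probe sets. Genotypes were compared by limma 3.58.1 (lmFit, eBayes, two-sided, no covariate) in R 4.3.3, with Benjamini-Hochberg adjustment over 23152 genes, or over all probe sets. Litter is not given, so it cannot be told apart from genotype. Precision is limited by 3 arrays per group. The members and gene lists, from textbook knowledge, were chosen with earlier results of these data known. Genes described in full were the testis-enriched and stress-induced lists and the 10 largest rises and falls among called members; in partner and marker lists up to 4 genes with the largest change were to be named, and *Hsf1*, *Sil1*, *Hyou1* and the marker examples were chosen after their values were seen. Upstream windows came from RefSeq (GRCm38.p6). Scripts were tested on simulated data. Figures used matplotlib 3.10.9 in Python 3.11.15.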

Additional observations from a re-analysis of the deposited data

How the results depend on the processing

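The counts were refitted under 17 alternatives, and 507 of 663 refits of 39 named genes kept direction and call, 138 lost the call, 6 gained it and 12 changed sign. A minimum change of 1.5-fold left 915 raised and 60 lowered genes in all, 5 raised and 0 lowered members, 4 raised testis-enriched genes and 0 raised and 0 lowered stress-induced genes. On the median of probe sets 2629 genes were lowered in all, 8 members, 1 testis-enriched gene (*Dnajc5g*), and 2 stress-induced genes were raised. On the brightest probe set 2194 genes were lowered in all, 4 members, and 0 stress-induced genes were raised and 0 lowered. The methods' one-way test with adjustment lowered 2408 genes in all, 9 members and 0 stress-induced genes. Centred arrays lowered 7 members and 1 stress-induced gene. With the dimmest 50% of probe sets left out, or a trend and robust variance, 1 testis-enriched gene was lowered, and with the dimmest 25% left out 47 member probe sets were lowered. Without single arrays 6 to 10 members were lowered, 1 to 2 stress-induced genes were raised and 0 to 2 lowered, and 24 to 40 member probe sets were raised and 5 to 12 lowered. Signs changed for *Hspa2* (0.0839 on the median and 0.00997 on the brightest probe set), *Hspb1* (0.00303 with the dimmest 50% left out, 0.0411 on the brightest), *Dnajb1* (-0.0426 on the median, -0.0566 on the brightest), *Mgat1* (0.0108 on the brightest), *Hsf4* (-0.208 on the median, -0.101 on the brightest) and *Hspe1* (-0.0448 on the brightest). Without single arrays *Hspe1* ran between -0.0796 and 0.192 and *Hspa1a* between -0.254 and 0.0068. None of the genes that changed sign was called. The cause of these shifts was not tested. Same-numbered arrays deviated together at correlations of 0.0311, 0.102 and -0.0588, and differently numbered ones at -0.133 to 0.107. With 3 arrays per group these values cannot show whether same-numbered mice were paired. A replicate block gave 14 raised and 11 lowered members, 7 raised testis-enriched genes and 24 raised and 7 lowered member probe sets. RMA values carry no background level, so a dim gene's fold may be compressed and absence cannot be read.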
